A study of Drosophila melanogaster with 27 samples.

Results

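Head mRNA of adult Drosophila melanogaster was compared between dusk and dawn, the hours around lights-off and lights-on in a day of 12 h light and 12 h dark. Dusk comprised 4 arrays, 2 each at ZT11 and ZT15, and dawn comprised 3 arrays, 2 at ZT23 and 1 at ZT3, where Zeitgeber time (ZT) counts the hours from lights-on. ZT11 and ZT3 lie in the light and ZT15 and ZT23 in the dark, so that dusk and dawn each held 1 time in the light and 1 in the dark. These 7 arrays belong to a series of 27 that followed RNA bound by AGO1, the Argonaute protein that carries microRNAs in flies, around the day. All 7 carried RNA of the head extract before immunoprecipitation (INPUT) from flies of wild-type genotype. The other wild-type INPUT arrays, 2 at ZT7 and 2 at ZT19, entered the estimate of spread between replicates, and 2 INPUT arrays of flies labelled Tim-Dcr, 1 at ZT15 and 1 at ZT3, gave values without a replicate. The labels name no strain, sex or age in days and do not explain the name Tim-Dcr. The samples of a time are called biological replicates in the series design, without a statement of how flies were pooled.

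The circadian clock of the fly is a pair of linked feedback loops. CLK and CYC activate the genes period (per), timeless (tim), vrille (vri), Pdp1 and clockwork orange (cwo); PER and TIM enter the nucleus at night and block CLK and CYC, while VRI represses and PDP1 activates Clk. The mRNAs of the first arm accumulate towards the evening and that of Clk towards the morning. In the head this clock runs in groups of brain neurons, in photoreceptors, in glia and in fat body.

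Values were log2 expression values per probe set as deposited. The 11 wild-type INPUT arrays correlated with each other at 0.985 to 0.996, and their means lay between 6.40 and 6.41. Head tissues were well represented in the 7 arrays. The photoreceptor genes Arr2, trp and chp lay between 11.3 and 14.6, 4 measured neuronal markers between 6.25 and 11.2, 4 glial markers between 9.24 and 12.99 and 5 fat body markers between 7.12 and 14.3. Transcripts of other body parts were present too, with 6 of 6 markers of the male reproductive tract between 7.26 and 12.9, 4 midgut markers between 7.72 and 12.3 and 3 ovarian follicle markers between 4.68 and 8.76. None of these markers passed the test between dusk and dawn. Because whole heads were measured, fewer cells of a type and less RNA per cell cannot be told apart.

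The comparison asks which mRNAs are high around lights-off and which around lights-on. Of 15513 probe sets tested, 12 (0.0774%, for 11 genes) were higher at dusk and 15 (0.0967%, for 13 genes and 2 probe sets without a gene symbol) were higher at dawn, at a Benjamini-Hochberg adjusted p under 0.05 in limma. The evening set was led by the clock genes vri, tim and per together with the deubiquitinase gene Usp8 and the channel-binding gene Slob. The morning set held Clk, the cuticle gene Cpr72Ec, the UDP-glycosyltransferase gene Ugt35B1, the retinol dehydrogenase gene Pdh, and laza, Smvt, Acsx3, Ank2 and Achl. CG34134, CG42329, CG13305 and CG32369 made up the rest of its 13 genes. Differences among the 12 ran from 0.77 to 2.28 (log2, dusk minus dawn) with a median of 1.39, and 9 were at least 2-fold. Among the 15 the median was -1.24 and 12 were at least 2-fold. The median over all tested probe sets was 0.0017 and the median standard error 0.14. In 11 of the 12 the 4 dusk arrays all lay above the 3 dawn arrays, as in 2.74% of all tested probe sets. In 12 of the 15 the dawn arrays all lay above the dusk arrays, as in 3.07%. Both orders are partly built in, since the same arrays chose these probe sets.

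Replicates at ZT11 and ZT23 set how many calls were made. Without replicate 1 or 2 of ZT23 the counts were 5 and 6 higher at dusk and 6 and 6 higher at dawn, and without replicate 1 or 2 of ZT11 they were 7 and 7 at dusk and 9 and 7 at dawn. The signs of all 27 were kept in each fit that left out 1 array. When the 7 arrays were fitted as 2 groups, so that a change between ZT11 and ZT15 or between ZT23 and ZT3 counted as spread, 3 dusk probe sets (vri, Usp8, CG18302) and 4 dawn probe sets (CG42329, CG13305, Cpr72Ec, CG32369) passed.

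The repressor arm of the clock held the largest evening differences. Array values are listed here and below in the order ZT11 replicates 1 and 2, then ZT15 replicates 1 and 2 for dusk, and ZT23 replicates 1 and 2, then ZT3 for dawn. vri, the basic leucine zipper repressor of Clk, read 10.47, 10.41, 10.15 and 10.56 at dusk and 8.44, 8.01 and 8.16 at dawn. Its dusk arrays were alike at both times and lay well above every dawn array. vri was 4.61-fold higher at dusk (2.20 on the log2 scale, SE 0.16, adjusted p = 0.000374).

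tim, whose protein is the light-sensitive partner of PER, was measured by 2 probe sets. The brighter read 11.10, 10.77, 11.50 and 11.24 at dusk and 9.82, 9.50 and 8.50 at dawn, and the dimmer 7.81, 7.56, 8.75 and 8.18 against 6.74, 6.19 and 5.13. In both, ZT3 was the lowest array and ZT23 lay between it and dusk, with no overlap. The differences were 2.07 (SE 0.16, 4.20-fold, adjusted p = 0.000584) and 2.28 (SE 0.19, 4.85-fold, adjusted p = 0.000768), and without the ZT3 array 1.49 and 1.61, still past the test.

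per, whose protein forms the repressor complex with TIM, read 7.42, 7.43, 8.48 and 8.66 at dusk and 6.22, 6.21 and 6.19 at dawn. The dawn arrays were nearly equal, while both ZT15 arrays stood above both ZT11 arrays. The difference was 1.79 (SE 0.12, 3.47-fold, adjusted p = 0.000374). With the 7 arrays as 2 groups the adjusted p was 0.130 for per and 0.0885 and 0.169 for the probe sets of tim.

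Pdp1 and cwo had the same order of arrays with smaller differences and did not pass. Pdp1, the activator of Clk, lay between 10.90 and 11.30 at dusk and between 10.57 and 10.79 at dawn, a difference of 0.43 (SE 0.16, adjusted p = 0.774). cwo, a basic helix-loop-helix repressor of the CLK and CYC targets, lay between 9.74 and 10.03 at dusk and between 9.32 and 9.48 at dawn, a difference of 0.46 (SE 0.11, adjusted p = 0.292), and its second probe set differed by 0.74 (adjusted p = 0.238). For neither gene did dusk and dawn arrays overlap. With all 23 wild-type arrays in the fit the second cwo probe set passed (adjusted p = 0.0492). That fit drew its spread partly from AGO1 precipitates of the same extracts, so it is no independent check.

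**Figure D1:**
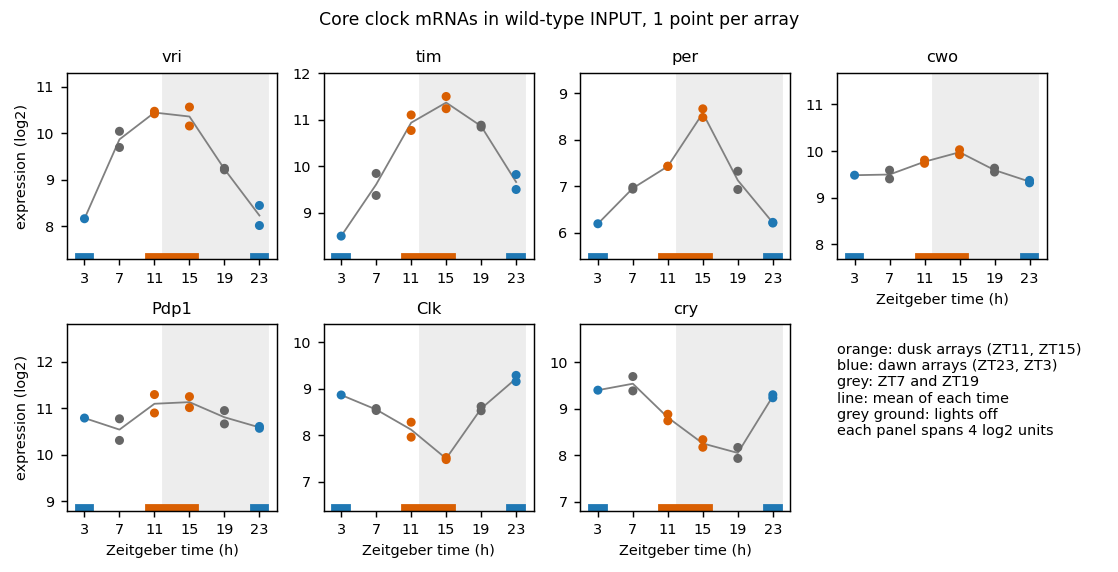
Expression (log2, vertical axis, 4 log2 units in every panel) of 7 core clock mRNAs against Zeitgeber time (h), 1 point per wild-type INPUT array, with lines through the time means and a grey ground for lights off. vri, tim and per lie high at the orange dusk arrays, Clk and cry at the blue dawn arrays, and Pdp1 and cwo move by less than 1 log2 unit.

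Usp8, which encodes a deubiquitinase that acts on endosomal receptors and Hedgehog signalling, was the other evening gene near 4-fold. It read 10.06, 10.42, 9.69 and 9.36 at dusk and 7.68, 7.53 and 8.11 at dawn. Its highest time was ZT11 and its lowest ZT23, and no dusk array reached down to a dawn array. The difference was 2.03 (SE 0.14, 4.07-fold, adjusted p = 0.000374). vri and Usp8 were the 2 evening probe sets that passed in each of the 15 alternative fits.

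Slob, whose protein binds the Slowpoke calcium-activated potassium channel, read 10.80, 11.02, 10.78 and 11.25 at dusk and 9.88, 10.07 and 8.76 at dawn. The single ZT3 array was lower than both ZT23 arrays by more than 1 log2 unit. The difference was 1.59 (SE 0.17, 3.02-fold, adjusted p = 0.00574). Without the ZT3 array it was 0.99 and did not pass (adjusted p = 0.137), nor did it without replicate 1 of ZT23. A second probe set of Slob differed by 0.12 (SE 0.16, adjusted p = 0.952), so the probe sets of this gene disagreed.

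The remaining evening genes differed by 0.77 to 1.19. CG18302, a predicted lipase gene, lay between 6.53 and 7.04 at dusk and read 5.59, 5.69 and 5.72 at dawn (1.17, SE 0.14, adjusted p = 0.0117). Its dawn arrays lay close together and below every other wild-type INPUT array of the day. CG14275 (1.19, SE 0.15, adjusted p = 0.0180), CG31710 (1.07, SE 0.14, adjusted p = 0.0225), CG7365 (0.96, SE 0.13, adjusted p = 0.0240) and CG2681 (0.77, SE 0.11, adjusted p = 0.0308) had no overlap between dusk and dawn. Each of these 4 lost its call without either ZT11 array or either ZT23 array, and CG14275, CG31710 and CG7365 also without ZT3. CG18302 lost its call without either ZT23 array.

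dy (dusky), which encodes a zona pellucida domain protein of the cuticle, was the evening gene whose arrays overlapped. It read 4.33, 4.57, 5.59 and 5.84 at dusk and 4.52, 4.35 and 4.06 at dawn. The ZT11 and dawn values lay near the floor of 4 (log2) set for testing. With a floor of 6 dy was not tested. Its ZT15 arrays stood out by about 1 log2 unit, and the ZT11 arrays lay close to those of dawn. The difference of 0.84 (SE 0.12, adjusted p = 0.0417) was near the threshold and was lost in 6 of the 7 fits that left out 1 array.

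On the morning side, Clk, the activator of the loop, read 7.96, 8.28, 7.47 and 7.52 at dusk and 9.28, 9.15 and 8.86 at dawn. All dawn arrays were above all dusk arrays, with ZT15 lowest and ZT23 highest. Clk was 2.35-fold higher at dawn (-1.23, SE 0.12, adjusted p = 0.00218). The call held whichever array was left out, and as 2 groups its adjusted p was 0.0885.

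cry, the blue-light receptor that resets the clock, read 8.88, 8.74, 8.17 and 8.33 at dusk and 9.30, 9.23 and 9.39 at dawn. The groups did not overlap, but the difference of -0.80 (SE 0.13, adjusted p = 0.0557) was the nearest to the threshold from outside. With all 23 wild-type arrays in the fit the same difference passed (adjusted p = 0.0323), again with precipitates in the estimate of spread.

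The largest morning difference belonged to CG34134. It read 5.99, 6.08, 8.53 and 8.61 at dusk and 11.15, 11.45 and 8.38 at dawn. The ZT3 array lay slightly below both ZT15 arrays, so dusk and dawn overlapped, and the level stood higher at each step from ZT11 through ZT15 and ZT19 to ZT23. Dusk minus dawn was -2.54 (SE 0.13, 5.81-fold, adjusted p = 7.23e-05), whereas the range over the 6 times was 5.27, or 38.5-fold. Without the ZT3 array the difference was -3.997, and as 2 groups it did not pass (adjusted p = 0.725).

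Achl, a clock-regulated gene linked to the expression of immune genes, had the same order of times. It read 4.57, 4.44, 7.22 and 7.13 at dusk and 8.63, 8.45 and 5.86 at dawn. ZT11 was at the trough and ZT15 above ZT3, so the groups overlapped. Its difference of -1.36 (SE 0.11, 2.57-fold, adjusted p = 0.000584) became -2.70 without ZT3 and did not pass as 2 groups (adjusted p = 0.943). In CG34134 the level changed about as much between ZT11 and ZT15 as between dusk and dawn, and in Achl it changed more.

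CG13305, CG42329 and Cpr72Ec differed between dusk and dawn in every alternative fit, without overlap. CG13305 read 6.85, 7.29, 6.56 and 7.04 at dusk and 8.48, 8.57 and 9.31 at dawn (-1.98, SE 0.16, 3.94-fold, adjusted p = 0.000584). CG42329 read 4.82, 5.04, 4.58 and 4.51 at dusk and 6.66, 6.71 and 6.37 at dawn (-1.79, SE 0.11, 3.46-fold, adjusted p = 0.000231). Cpr72Ec, a gene for a structural protein of the cuticle, read 9.67, 9.82, 9.04 and 9.60 at dusk against 11.17, 11.08 and 11.12 at dawn (-1.59, SE 0.16, 3.01-fold, adjusted p = 0.00412). By the time means, CG13305 was highest at ZT3 and CG42329 at ZT23, while Cpr72Ec stood alike at both (11.12). All 3 were lowest at ZT15. The second probe set of CG42329 differed by -0.30 (adjusted p = 0.816).

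Genes of metabolism and transport followed. Ugt35B1, a UDP-glycosyltransferase of the family that conjugates small molecules, read 6.98, 6.79, 5.99 and 6.56 at dusk and 8.06, 8.27 and 7.75 at dawn (-1.38, SE 0.16, adjusted p = 0.0101). Smvt, named for a transporter of vitamins, read 6.03, 5.63, 5.60 and 5.04 at dusk and 7.28, 7.24 and 6.42 at dawn (-1.27, SE 0.16, adjusted p = 0.0180). Acsx3, of the acyl-CoA synthetase family, lay between 7.68 and 8.54 at dusk and between 8.92 and 9.76 at dawn (-1.21, SE 0.16, adjusted p = 0.0180). Dusk and dawn arrays of these 3 genes did not overlap, and each lost its call without either ZT23 array. Ugt35B1 and Smvt also lost it without ZT11 replicate 2, and Acsx3 without either ZT11 array. With the 7 arrays as 2 groups none of the 3 passed (adjusted p = 0.0885, 0.173 and 0.173 in limma). Smvt did not pass with all 23 wild-type arrays (adjusted p = 0.145). Acsx3 was higher still at ZT19, with a mean of 9.91. CG32369 (-1.23, SE 0.14, adjusted p = 0.00830) was also without overlap, lost its call without any 1 of the ZT11 or ZT23 arrays, and its second, dim probe set differed by -0.12 (adjusted p = 0.962).

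The eye contributed laza and Pdh. laza, which encodes a lipid phosphate phosphatase of photoreceptors, read 8.72, 8.94, 8.39 and 8.58 at dusk and 9.60, 9.63 and 9.45 at dawn (-0.88, SE 0.12, 1.84-fold, adjusted p = 0.0240). Pdh, the retinol dehydrogenase that recycles the visual chromophore in pigment cells, was among the brightest genes and read 12.21, 12.13, 12.43 and 12.46 at dusk and 13.24, 13.43 and 12.74 at dawn (-0.73, SE 0.11, 1.66-fold, adjusted p = 0.0417). Neither gene overlapped between dusk and dawn. laza lost its call without any 1 of the ZT11 or ZT23 arrays, and Pdh in 6 of 7 such fits. The photoreceptor markers Arr2 (0.02), trp (0.24) and chp (0.29) had small positive differences and did not pass.

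Ank2, an ankyrin that links membrane proteins to the cytoskeleton of neurons, passed through 1 of its 5 probe sets. That probe set read 8.51, 8.89, 9.84 and 10.27 at dusk and 11.15, 11.03 and 10.15 at dawn (-1.24, SE 0.15, adjusted p = 0.0117). One ZT15 array lay above ZT3, so the groups overlapped. The other probe sets differed by -0.73, -0.25, 0.07 and 0.13 without passing, so the probe sets disagreed in size and partly in sign. Those at -0.73 (the brightest) and -0.25 were, like the called one, highest at ZT23 and lowest at ZT11. Those at -0.25 and 0.07 were dim, with dusk means of 5.20 and 4.85, and the one at 0.13 had a dusk mean of 8.53. The 2 probe sets without a symbol differed by -1.19 (adjusted p = 0.0180) and -0.85 (adjusted p = 0.0240), with dawn above dusk in all arrays.

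The times of highest and lowest level differed within each set. Of the 12 evening probe sets, 10 were highest at ZT15 and 2, vri and Usp8, at ZT11, while 9 were lowest at ZT3 and 3 at ZT23. Of the 15 morning probe sets, 11 were highest at ZT23, 3 at ZT3 and 1 at ZT19, while 8 were lowest at ZT11 and 7 at ZT15. Most of both sets thus reached their highest level in the dark, late for the evening set and early for the morning set relative to the switch of the lights. Some of these times rest on near-ties of means, as in vri (10.44 at ZT11, 10.36 at ZT15) and Cpr72Ec (11.12 at ZT3 and ZT23). ZT3 was a single array. The times describe probe sets that were chosen for a difference between dusk and dawn.

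**Figure D2:**
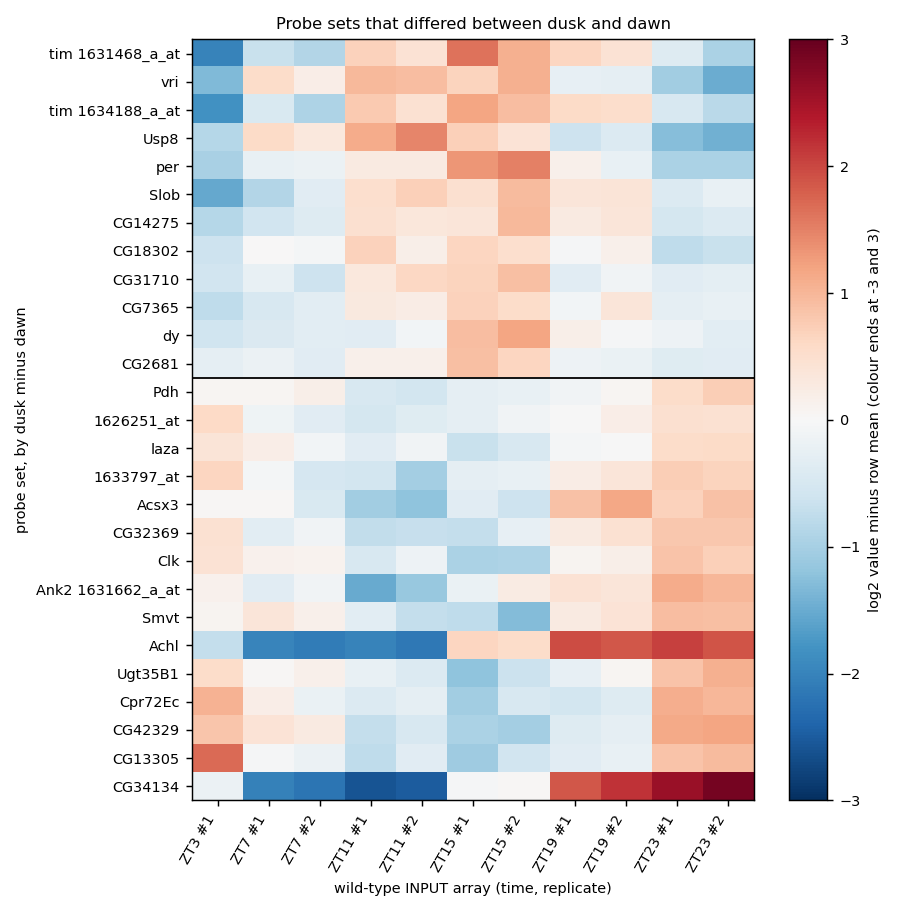
Each row is 1 of the 27 probe sets that differed between dusk and dawn and each column 1 of the 11 wild-type INPUT arrays in order of time, coloured by the log2 value minus the row mean, with colours ending at -3 and 3. The 12 rows above the line are red at ZT15 and, except dy, at ZT11, the 15 below it at ZT23 and in most rows at ZT3, and Achl and CG34134 show the widest colour range.

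Light itself differs between times, so the 27 were also read in the light alone and in the dark alone. ZT11 minus ZT3 set dusk against dawn with the lights on, and ZT15 minus ZT23 with the lights off, and these 2 pairs share no array. All 27 probe sets had the same sign in both pairs, as did 53.8% of all tested probe sets. This agreement is partly built in, since the mean of both pairs chose the 27. In the light 5 (0.0322% of all tested) were higher at dusk and 4 (0.0258%) at dawn, 9 in all (0.058%). In the dark 8 (0.0516%) were higher at dusk and 10 (0.0645%) at dawn, 18 in all (0.116%). None but members of the 27 passed in either pair.

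The 8 probe sets past the test in both pairs were those of vri, tim (both), Usp8, CG34134, CG13305, CG42329 and Achl. vri differed by 2.28 in the light and 2.13 in the dark, and Usp8 by 2.13 and 1.92. Achl differed by -1.35 and -1.37. The differences of vri, Usp8 and Achl were thus near-equal in both pairs. Others were further apart, such as CG42329 (-1.44 and -2.14) and CG13305 (-2.24 and -1.72). Both pairs entered the choice of these probe sets, so this likeness is no independent check. The light pair rests on the single ZT3 array, and without replicate 1 or 2 of ZT11 limma made 0 calls in it, with 590 and 890 probe sets at an unadjusted p under 0.05. Without replicate 1 or 2 of ZT23 the dark pair made 2 and 1 calls higher at dusk and 2 and 3 higher at dawn.

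Among the 27, the gap between both pairs was largest in Smvt, per, Slob, Ugt35B1 and Clk. per differed by 1.23 in the light (adjusted p = 0.149) and by 2.35 in the dark (adjusted p = 0.000328), Clk by -0.75 (adjusted p = 0.739) and -1.72 (adjusted p = 0.00229), and Smvt by -0.60 (adjusted p = 0.813) and -1.94 (adjusted p = 0.00776). Slob went the other way, with 2.15 in the light (adjusted p = 0.0249) and 1.04 in the dark (adjusted p = 0.326). The light pair minus the dark pair was -1.12 for per (unadjusted p = 0.00127 in limma), 0.98 for Clk (0.00203), 1.35 for Smvt (0.00238), 1.11 for Slob (0.00931) and 1.03 for Ugt35B1 (0.0101). Over all probe sets 0 passed this test of the difference in limma (smallest adjusted p 0.999, 460 at an unadjusted p under 0.05). For no gene was the dusk-dawn difference thus shown to differ between the light pair and the dark pair. The test did not compare levels in the light with levels in the dark. Outside the 27, Crz, the gene of the neuropeptide corazonin (1.16, unadjusted p = 0.00127 in limma's test), CG34049 (1.13, 0.00188) and CG18231 (0.90, 0.00183) had the smallest p values. Their dusk level was above dawn in the light (0.74, 0.66 and 0.61) and below it in the dark (-0.42, -0.47 and -0.29).

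**Figure D3:**
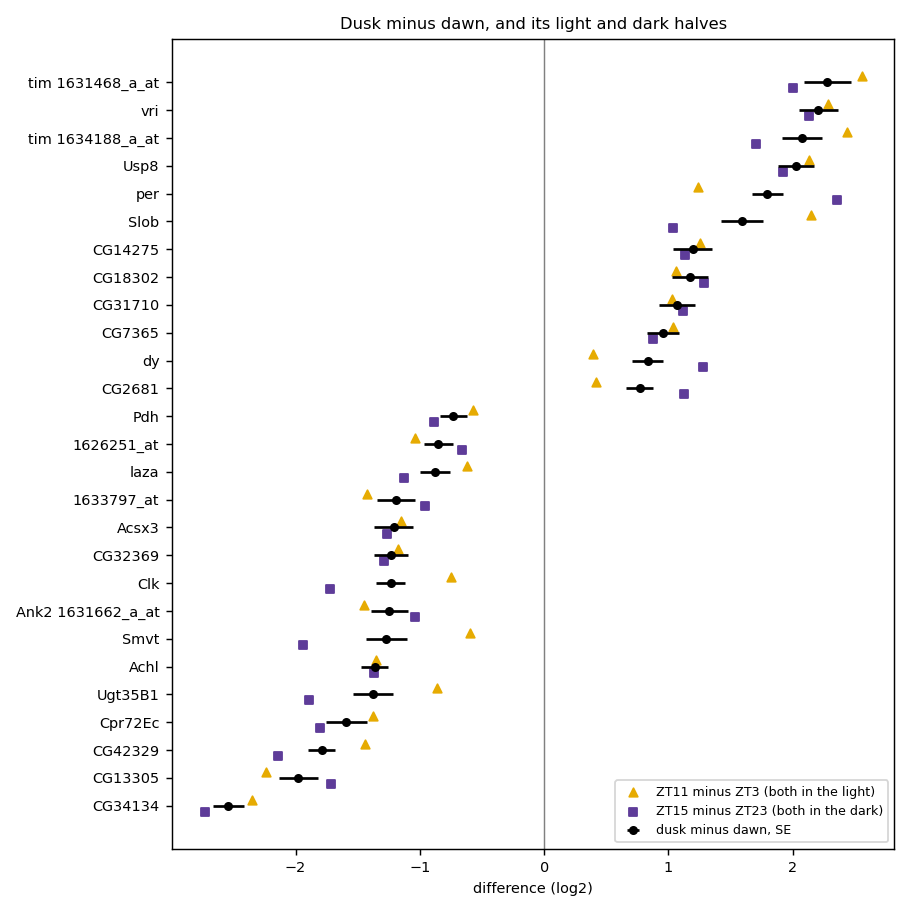
Difference between dusk and dawn (log2, horizontal axis) of the 27 probe sets, with black points and bars for dusk minus dawn and its standard error, yellow triangles for ZT11 minus ZT3 in the light and purple squares for ZT15 minus ZT23 in the dark. All 3 marks lie on 1 side of 0 in every row, and the triangle and square stand far apart for per, Slob, Clk and Smvt.

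INPUT arrays of Tim-Dcr heads gave the same mRNAs in samples that the comparison had not used, with 1 array at ZT15, 1 at ZT3 and therefore no test. All 12 evening probe sets were higher at ZT15 and 14 of the 15 morning probe sets higher at ZT3, the directions of the wild-type comparison. Among all tested probe sets 50.1% had the sign of the wild-type comparison. Of the 12, 11 were at least 2-fold higher at ZT15, as were 0.271% of all tested probe sets. Of the 15, 7 were at least 2-fold higher at ZT3, as were 5.67% of all, and the median over all probe sets was 0.085 towards ZT15.

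The Tim-Dcr arrays stood apart from wild type in transcripts of the male reproductive tract and midgut, and less so in those of the ovarian follicle. The 3 follicle markers averaged 5.70 at ZT15 and 5.28 at ZT3 in Tim-Dcr, against 5.63 to 8.67 in the wild-type INPUT arrays. Of these markers 1 lay below every wild-type array at both times. The 6 markers of the male reproductive tract averaged 4.31 at ZT15 and 6.65 at ZT3 in Tim-Dcr, against 9.73 to 10.5 in the 11 wild-type INPUT arrays, and all 6 lay below every wild-type array at both times. The 4 midgut markers averaged 4.88 and 6.66 against 10.5 to 11.3, again with all 4 below every wild-type array. SP, the sex peptide of seminal fluid, read 4.15 and 6.64 where wild-type arrays lay between 11.5 and 12.1. Within Tim-Dcr the averages of male tract and midgut were lower at ZT15 than at ZT3, the direction of the morning set. The follicle average and the midgut marker Jon99Ci (4.98 against 4.87) were slightly higher at ZT15. Their part in the Tim-Dcr differences was not tested. On average, markers of glia and fat body stood on the other side of wild type, although the glial Gs2 (12.96 and 12.83) lay inside the wild-type range (12.66 to 12.99). The 4 glial markers averaged 11.3 and 11.4 in Tim-Dcr against at most 10.9 in a wild-type array, and the 5 fat body markers 13.3 and 13.4 against at most 12.7. Lsp2, a storage protein gene of the fat body, read 10.4 and 10.8 where wild-type arrays lay between 5.84 and 8.57. None of the 3 photoreceptor or 4 neuronal markers lay below every wild-type array at both times. The neuronal elav, at 10.35 and 10.45, lay above the highest wild-type value of 10.32.

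vri read 11.04 at ZT15 and 7.46 at ZT3 in Tim-Dcr, a difference of 3.58 against 2.20 between the same times in wild type. The tim probe sets differed by 3.54 and 4.16 (2.87 and 3.34 in wild type), per by 2.26 (2.38) and Clk by -2.16 (-1.37). CG42329 differed by -2.55 (-1.82) and CG13305 by -1.85 (-2.50). CG34134 stood at -1.64 in Tim-Dcr and 0.19 in wild type, so between these times its sign differed between genotypes. Achl stood at 0.06 and 1.31, positive in both. In Tim-Dcr it was the only morning probe set without the sign of wild-type dusk minus dawn. The gaps between both genotypes were not tested. AGO1 precipitates of the wild-type extracts, which are fractions of the same samples and no independent check, had the sign of INPUT in 12 of 12 and 15 of 15, against 58.4% of all tested probe sets. A wild-type precipitate titled ZT3 has a description that names another time, and its title was used.

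**Figure D4:**
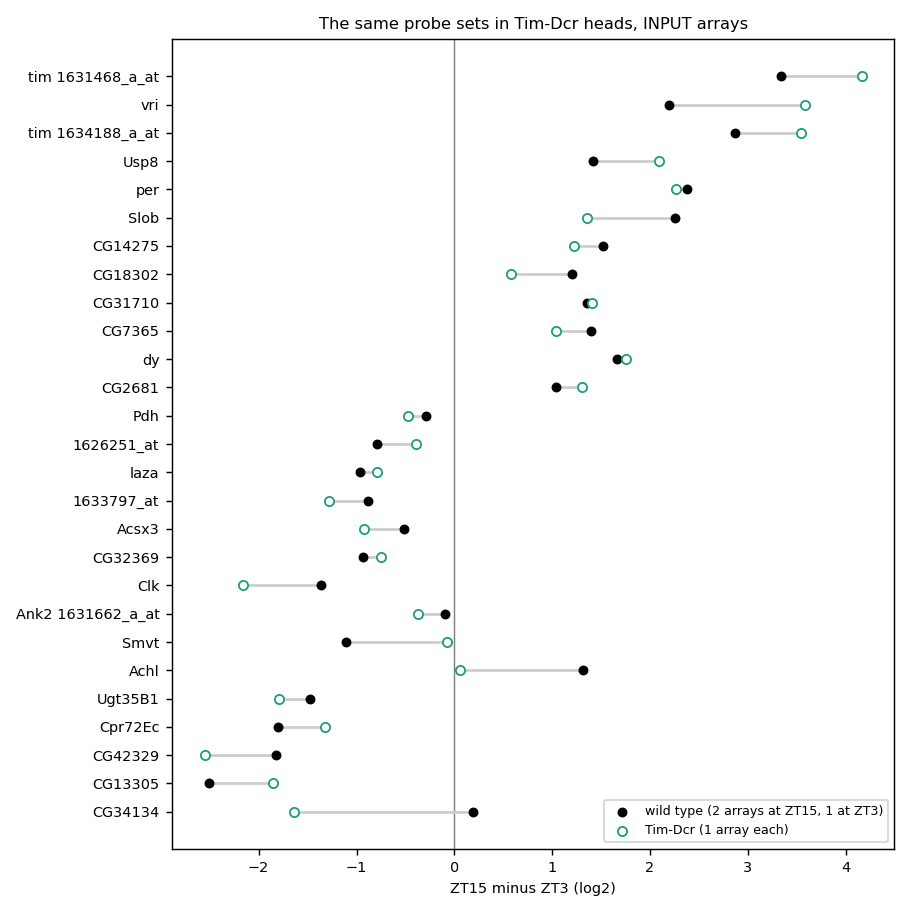
ZT15 minus ZT3 (log2, horizontal axis) of the 27 probe sets in INPUT arrays, with filled points for wild type (2 arrays at ZT15, 1 at ZT3) and open points for Tim-Dcr (1 array each). The 12 evening rows at the top lie right of 0 in both genotypes, and the morning rows lie left of 0 except Achl in both and CG34134 in wild type.

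Lists of genes by role were then read against the background of 0.174% called and a median of 0.0017. Of 5 measured genes of the evening clock arm 3 passed (median 1.79), and of the 2 of the morning arm 1 passed. None of 23 other clock components passed, a list of kinases, phosphatases and regulators with a median of -0.04. Its largest members were tws, a phosphatase subunit that acts on PER (0.67, SE 0.15, adjusted p = 0.292), and kis, a chromatin remodeller (-0.51, adjusted p = 0.753). Of 22 neuropeptides and receptors of the clock network none passed, with a median of 0.11 and Dh31 (0.44) and ITP (-0.39) at its ends. Of 40 genes known as head cyclers 4 were higher at dusk (Usp8, Slob, CG14275, dy) and 7 at dawn. This list was partly written with results of these data known and is no independent evidence.

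Genes of vision were called at the level of single members. Of 20 phototransduction genes laza alone passed (median -0.02), while the scaffold gene inaD stood at -0.61 (SE 0.14, adjusted p = 0.342) without overlap and the channel gene trpl at -0.38 (adjusted p = 0.713). Of 7 genes of the chromophore pathway Pdh alone passed (median 0.00), with the retinoid-binding pinta at -0.66 (adjusted p = 0.522). Of 26 genes of potassium channels and membrane excitability Slob alone passed, and 18 were negative. The median of that list was -0.10, with the potassium channel genes Sh at -0.58 (adjusted p = 0.566) and SK at -0.52 (adjusted p = 0.630). Sleep genes (23, none called) had a median of -0.11. Ank2 entered that list through its brightest probe set (-0.73) and not through the called one (-1.24).

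Among enzymes, 1 of 27 UDP-glycosyltransferases passed, and 6 of the 27 had all dawn arrays above all dusk arrays, an order found in 3.07% of all tested probe sets, among them Ugt302C1 (-0.62, adjusted p = 0.218) and Ugt35A1 (-0.50, adjusted p = 0.218). Of 32 glutathione transferases none passed, with 5 in that order. GstZ2 read 7.52, 7.54, 7.24 and 6.89 at dusk and 8.42, 8.01 and 8.36 at dawn, a difference of -0.99 (SE 0.17, adjusted p = 0.0920). GstZ2 passed with the replicate number as a block (adjusted p = 0.0340), but these numbers are only shared names and were not taken as pairing samples. None of 75 cytochrome P450 genes passed (median 0.03, Cyp4d21 at 0.88 with adjusted p = 0.383). Of 85 cuticle proteins Cpr72Ec alone passed and 56 were negative (median -0.06), with Cpr73D at -0.68 (adjusted p = 0.149) and Cpr11B at 0.65 (adjusted p = 0.152) on opposite sides.

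Lists of general metabolism and of the machinery of gene expression had no called member. The nuclear genes of oxidative phosphorylation (75, median -0.01), the proteasome (40, 0.04), cytosolic ribosomal proteins (34, 0.02) and mitochondrial ribosomal proteins (69, 0.09) were among them. Of the last, 55 were positive, none past 0.33. Carbohydrate metabolism (33, median -0.01), fat storage and synthesis (27, 0.03), and insulin and nutrient signalling (19, -0.05) were alike, with the insulin receptor gene InR at -0.51 (SE 0.16, adjusted p = 0.631). Immune effectors (29, -0.01), heat shock genes (15, 0.10), monoamine genes (18, 0.00), synaptic release (22, 0.00), odorant-binding proteins (37, 0.08) and gustatory and odorant receptors (69, -0.05) also had 0 calls in limma. Further lists without a call were neuronal and glial identity (20, -0.02), light and activity response (14, -0.06), the takeout and juvenile hormone list (20, -0.04), redox genes (24, -0.01), the unfolded protein response (19, 0.07), aminoacyl-tRNA synthetases (29, 0.07), muscle (20, -0.04), seminal fluid and sperm (23, -0.04), Hairy/E(spl) and Bearded genes (10, 0.24) and Turandot genes (3, -0.19). Of all tested probe sets 938 (6.05%) had an unadjusted p under 0.05 for dusk minus dawn. Over these lists such members numbered between 0 (oxidative phosphorylation, carbohydrate metabolism, cytosolic ribosomal proteins, Turandot) and 8 (of 20, takeout and juvenile hormone list).

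Genes of yolk and chorion were positive in 12 of 12 members (median 0.39), and of 26 digestive proteases 21 were positive (median 0.22), with none called in either. Arrays of some egg genes varied widely inside dusk and inside dawn, while the yolk protein gene Yp1 lay between 14.1 and 14.3 in all 7. The oocyte gene osk read 7.78, 4.82, 7.77 and 7.51 at dusk and 3.74, 7.74 and 5.35 at dawn, a difference of 1.43 with a standard error of 1.05. dhd, the thioredoxin of the egg, read 9.43, 7.08, 10.06 and 9.26 at dusk and 5.24, 9.55 and 6.97 at dawn (1.78, SE 1.04). ZT11 replicate 2, ZT23 replicate 1 and ZT3 were low and the other 4 arrays high in both genes, which cuts across dusk and dawn. The part of ovarian RNA in other differences was not tested.

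**Figure D5:**
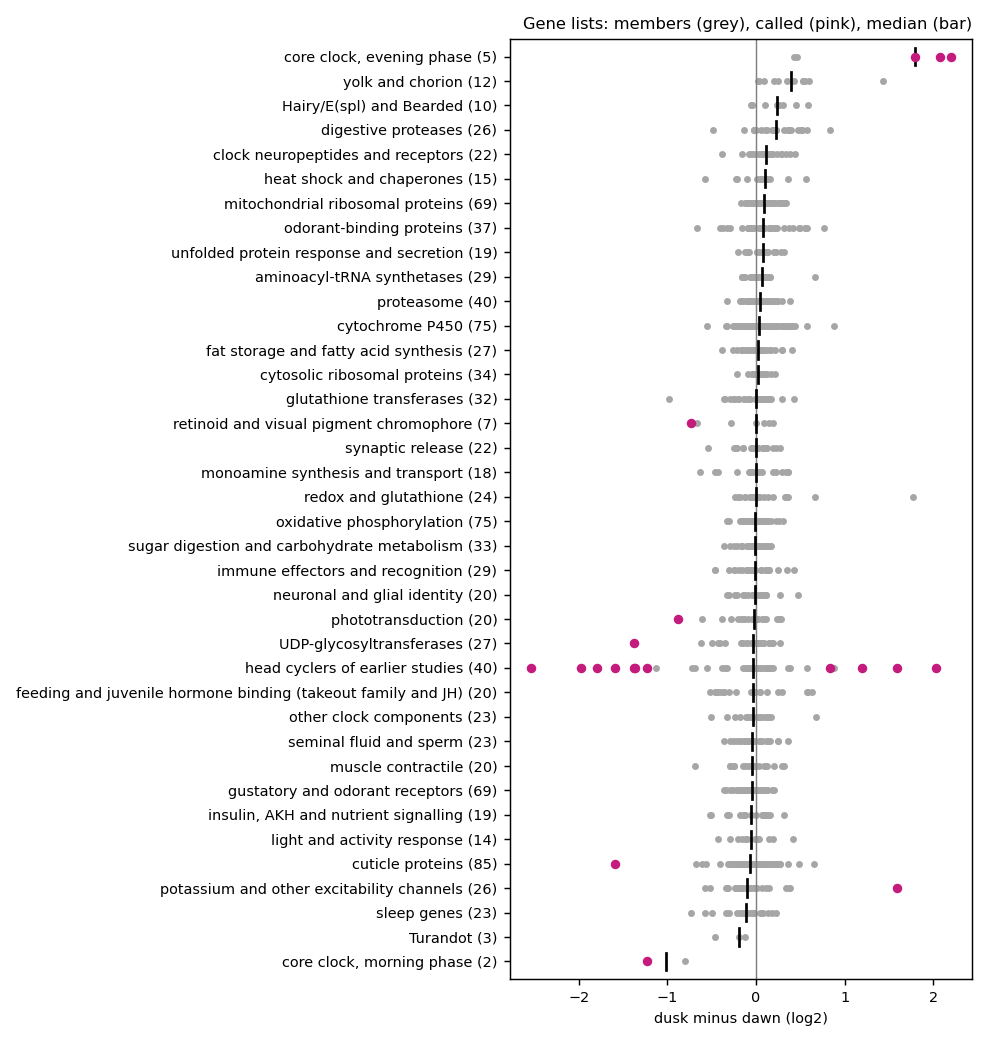
Dusk minus dawn (log2, horizontal axis) of the tested members of each gene list, with the number tested in brackets, grey points for members not past the test, pink points for members past it and a black bar at the median. Only the 2 core clock lists have a median beyond 0.4 in size, and beside the core clock and head cycler lists pink points are single members in phototransduction, chromophore, glycosyltransferase, cuticle and channel lists.

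At the edge of the threshold, dy and Pdh were the last probe sets inside (adjusted p = 0.0417 for both). The nearest named genes outside were cry, then gol, a ubiquitin ligase gene (1.19, SE 0.19, adjusted p = 0.0659), Cipc (1.20, SE 0.20, adjusted p = 0.0763), CG4842 (-0.66, SE 0.11, adjusted p = 0.0862) and qsm (-0.79, SE 0.13, adjusted p = 0.0875). gol read 9.11, 8.86, 8.51 and 9.32 at dusk and 7.81, 8.11 and 7.55 at dawn, and Cipc read 9.82, 10.08, 9.09 and 9.82 at dusk and 8.55, 8.75 and 8.35 at dawn. Both had all dusk arrays above all dawn arrays and differed by more than 2-fold, so that a larger difference than that of CG2681 or dy lay outside the threshold. gol, Cipc, cry, GstZ2 and the second cwo probe set were among 13 that passed with all 23 wild-type arrays, precipitates included, and not with the 11.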

How the data were processed

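Affymetrix arrays measured RNA of head extracts, labelled with biotin. The deposited log2 values per probe set were made by the authors, with GCRMA named in the submitters' processing notes. Neither a version nor the set of arrays normalized together is recorded there. Controls (183 of 18952 probe sets) were left out. In the supplied array annotation 13647 of the remaining 18769 had 1 gene symbol, 402 several and 4720 none; 13544 had a gene ID in the RefSeq gene table. A gene was represented by its probe set of highest mean in the 11 wild-type INPUT arrays.

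Samples were grouped by the time and genotype in the labels. limma 3.58.1 (lmFit, contrasts.fit, eBayes) in R 4.3.3 fitted 6 time means to the 11 arrays (5 residual degrees of freedom), and dusk minus dawn was the mean of ZT11 and ZT15 minus the mean of ZT23 and ZT3. Probe sets above 4 (log2) in at least 3 of the 11 arrays were tested (15513), with two-sided p-values adjusted by Benjamini-Hochberg over all of them and called under 0.05. The number of arrays limits the precision, and ZT3, with 1 array, borrows its spread from the other times. The script was tested on simulated data. Python 3.11.15 with pandas 2.3.3 handled the tables and matplotlib 3.10.9 the figures.

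Named genes were, in each direction, up to 15 called genes of largest difference without overlap of dusk and dawn arrays, all measured core clock genes, up to 4 of largest difference in each other list and 5 of smallest p for the light pair minus the dark pair. dy, Achl, the called Ank2 probe set, the genes next to the threshold and the cell markers were named after their values were seen, so that all calls are described. The comparison and the lists were chosen with earlier results of these data known. Alternatives changed the model, arrays, scaling, filter and spread, or left out each of the 7 arrays in turn.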

Additional observations from a re-analysis of the deposited data

Results flagged for a closer look

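The values below lie in wild-type INPUT arrays at ZT7 and ZT19, which the comparison of dusk and dawn did not use. In each case both arrays of that time stood above every dusk and dawn array. Acsx3, which was higher at dawn than at dusk, had its highest mean at ZT19, 9.91 (log2). Indy, a citrate transporter gene, had a mean of 10.04 at ZT19 and did not pass between dusk and dawn (-0.31, adjusted p = 0.834 in limma). Genes of seminal fluid, eggshell and chemoreception made up the rest, with means of 12.00 for SP, 6.66 for Cp19 and 5.90 for Ir75a at ZT7 and of 6.64 for Vm34Ca at ZT19. These excesses over dusk and dawn were not tested, and that of SP was small beside its range between arrays.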

How the results depend on the processing

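The 27 calls kept their sign in each alternative that tested them, and their number depended on the arrays and the model. With the 7 arrays as 2 groups 3 probe sets were higher at dusk and 4 at dawn, where a change between the 2 times of a group counts as spread; with all 23 wild-type arrays 20 were higher at dusk and 17 at dawn, and 24 of the 27 were kept. Leaving out 1 array gave 5 to 16 calls at dusk and 6 to 17 at dawn, the fewest without a ZT23 array. For ZT11 minus ZT3 the counts without 1 ZT11 array were 0 at dusk and 0 at dawn. For ZT15 minus ZT23 leaving out 1 array gave 1 to 9 at dusk and 2 to 12 at dawn. The cause was not tested. Median centring, quantile normalization, no filter, a floor of 6 and eBayes with trend and robust kept 26 or 27 of the 27 calls (26 of the 26 tested above a floor of 6), and requiring 2-fold left 9 and 12.

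Of the 27, 11 stayed past the test whichever array was left out, and 5 in each of 15 alternatives (vri, Usp8, CG42329, CG13305, Cpr72Ec). The light pair minus the dark pair had 0 calls in each limma fit, with 460 probe sets at an unadjusted p under 0.05 as reported. Over the named genes 2345 of 2453 values kept their side of the threshold, 90 lost it, 6 gained it and 12, of 11 genes past no test, changed sign, mostly without ZT3. Gains were GstZ2 and cry with 23 arrays, GstZ2 with the replicate block, CG7409 and Obp8a without ZT15 replicate 2, and t without ZT3. A fit with the replicate number as a block, where the numbers are only shared names, gave 11 calls at dusk and 16 at dawn, with 26 of the 27 among them. Deviations of same-numbered arrays correlated across times at -0.30 to 0.47, so the numbers were not taken as pairing samples. In Tim-Dcr, ZT15 minus ZT3 had the sign of wild-type dusk minus dawn in 26 of the 27. It did so in 25 once the median of each array was subtracted (-0.11 between the array medians). It did so in 27 after the median difference of 0.085 was subtracted, a setting chosen after seeing the data. A planned comparison of promoter motifs was not run. Signals low on the array limit what could be called: probe sets above a log2 of 4 in fewer than 3 arrays were not tested, and 1 array at ZT3 limits the light pair.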

Other observations

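When all 23 wild-type arrays, precipitates included, estimated the spread, 13 more probe sets passed between dusk and dawn, of which 5 are described above. Of the others higher at dusk, Drip, a water channel gene, differed by 0.60 (adjusted p = 0.0125 in limma with 23 arrays and 0.188 with 11). CG12910 differed by 0.74 (0.00359 and 0.105) and CG31100 by 0.75 (0.00990 and 0.131). Of the others higher at dawn, jbug, a filamin-like actin cross-linker, differed by -0.73 (0.0323 and 0.0984). These genes were chosen after their values were seen.

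Act88F, the actin gene of the indirect flight muscle, varied between replicates of 1 time. It read 8.96, 11.29, 7.73 and 10.32 at dusk and 9.16, 9.52 and 9.18 at dawn, so that dusk arrays lay on both sides of the dawn arrays. Obp19a, an odorant-binding protein gene, read 5.48 and 7.27 at ZT11, 3.70 and 3.83 at ZT15, and between 3.86 and 4.56 at dawn, so that among these 7 arrays both of ZT11 were highest. No difference between dusk and dawn was called for either gene.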
